A study of Homo sapiens with 6 samples.

Results

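The genes described here encode the proteins of the cytosolic ribosome. They were chosen by name alone: protein-coding genes of the RPL and RPS series together with RPLP0, RPLP1, RPLP2 and RPSA, without the S6 kinases and without RPS27L. The deposited table held 85 such genes among 58395 rows. Of these, 33 belonged to the small subunit and 52 to the large subunit. Expression had been measured by RNA sequencing in 786-O cells, an established human clear cell renal carcinoma line. The sgPLOD2 group (3 libraries) carried a CRISPR/Cas9 knockout of PLOD2, a lysyl hydroxylase that modifies collagen. The sgControl group (3 libraries) was labelled as control, and both were grown in the same serum-containing medium. The sources used here give neither the guide sequences nor whether either line was a pool or grown from 1 cell. Nothing says that the 3 libraries of a group came from separate cultures, so p-values reflect how much these libraries varied, and that variation may be technical.

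The cytosolic ribosome is built from a small subunit that decodes messenger RNA and a large subunit that forms the peptide bond. Its proteins are made in near-equal numbers per ribosome, and most copies that find no partner are degraded. Their messenger RNAs are among the most abundant of a growing cell and share a pyrimidine-rich start, the TOP motif, through which mTORC1 and LARP1 control their translation and stability. In clear cell renal carcinoma the mTOR pathway that acts on these messages is a drug target.

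The unit throughout is FPKM, fragments per kilobase of gene, scaled to the mapped fragments of each library. The targeted gene PLOD2 had 5.98, 10.1 and 6.64 FPKM in sgPLOD2 libraries, against 26.8, 25.7 and 21.5 FPKM in sgControl libraries, so the libraries followed their labels (log2 fold change -1.61, limma with Benjamini-Hochberg adjustment, adjusted p = 0.0005087). FPKM summed to between 229485 and 238801 in sgPLOD2 libraries and between 243422 and 268612 in sgControl libraries. Mitochondrially encoded genes took 6.01% to 6.72% of it in sgPLOD2 libraries and 6.96% to 12.9% in sgControl libraries, and the part of that difference in the results was not tested. Depth per library is unknown, but the authors' mean normalized counts of the 81 tested genes ran between 1656 and 374600. Of 10 renal carcinoma line markers, 8 reached a mean of 1 FPKM, and CA9 and NDUFA4L2 did not. None of 5 haematopoietic, 3 endothelial and 4 fibroblast markers reached it. These are bulk libraries, in which fewer cells of a type and less RNA per cell cannot be told apart.

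Ribosomal protein messages took up a similar share of every library. They made up 8.70%, 7.86% and 7.99% of all FPKM in sgPLOD2 libraries, against 7.46%, 7.39% and 8.01% in sgControl libraries, and the groups overlapped. When FPKM was multiplied by gene length, which gives the share of sequenced fragments, the values were 6.56% ± 0.484 in sgPLOD2 libraries and 6.61% ± 0.429 in sgControl libraries (SD, n = 3 each). Small-subunit genes took 3.55% ± 0.205 of FPKM in sgPLOD2 libraries and 3.15% ± 0.214 in sgControl libraries. Large-subunit genes took 4.63% ± 0.253 in sgPLOD2 libraries and 4.47% ± 0.129 in sgControl libraries. The ratio of small- to large-subunit FPKM was 0.770, 0.777 and 0.749 in sgPLOD2 libraries, against 0.685, 0.691 and 0.736 in sgControl libraries. All 3 sgPLOD2 ratios lay above all 3 sgControl ratios, and the nearest pair was 0.749 in an sgPLOD2 library and 0.736 in an sgControl library. Without RPS4X the ratio was 0.725, 0.730 and 0.704 in sgPLOD2 libraries, against 0.667, 0.673 and 0.718 in sgControl libraries, and the groups overlapped. The ratio was not tested.

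**Figure D1:**
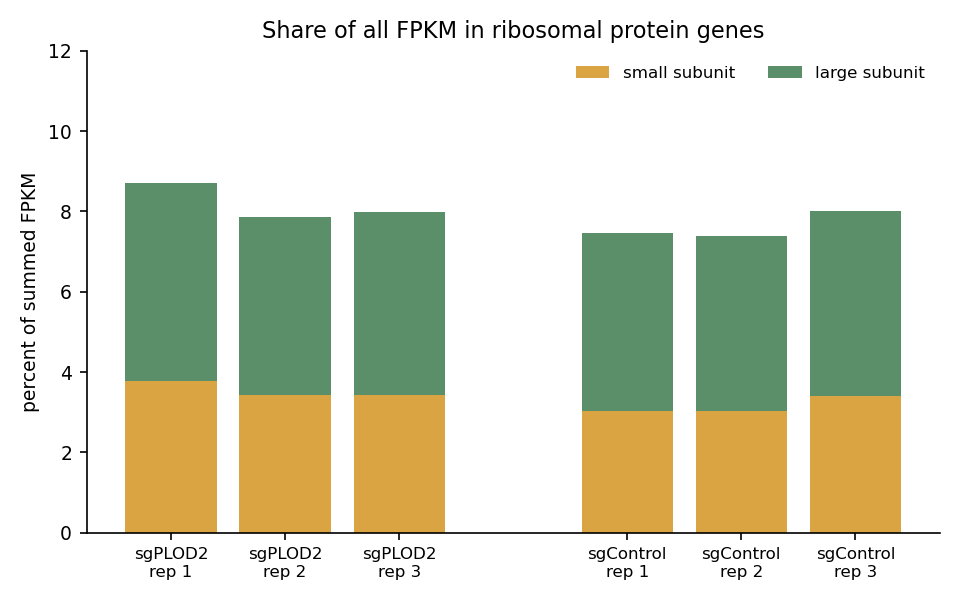
Percent of summed FPKM in ribosomal protein genes (y axis) for each of the 3 sgPLOD2 and 3 sgControl libraries (x axis), stacked as small-subunit genes below and large-subunit genes above. The 6 totals lie between 7.39% and 8.70%, and the groups overlap.

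Within this total, single genes moved both ways. Averages of 1 FPKM or more were reached by 81 genes, of which 15 were called higher in sgPLOD2 (18.5%) and 12 lower (14.8%) by limma on log2(FPKM + 1), with Benjamini-Hochberg adjustment over all genes tested and a threshold of 0.05. Over all 10469 tested genes, 52.9% were called, 29.5% higher and 23.5% lower. The FPKM ranges of both groups did not overlap for 29 of the 81 genes (35.8%), against 62.7% of all tested genes. Their median fold size was 0.21 on the log2 scale, against 0.37 for all tested genes. A called change of at least 1 on the log2 scale was found in 2 of them, RPS4X and RPL14, against 8.94% of all tested genes. RPL14 passed 1 narrowly (1.031). It was 0.965 with median-of-ratios scaling and 0.935 in the authors' deposited table, but 1.16 after rescaling to a common total. The 81 ribosomal protein genes were also compared as a whole. Their median log2 fold change was -0.08, against 0.06 for all tested genes. That median was -0.15 with median-of-ratios scaling, but 0.05 after rescaling to a common total (TPM). It was 0.02 after TPM without mitochondrial and ribosomal protein genes and 0.13 after quantile normalization, so its sign depends on scaling. In the same order, the median of all tested genes was 0.006, 0.17, 0.14 and 0.003. The family median lay below that of all tested genes in the FPKM fit and under each of these scalings except quantile normalization. Under all 4 other scalings, 11 of the 15 higher calls and 5 of the 12 lower calls were kept.

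Both subunits held genes of each kind. In the small subunit 6 of 32 tested genes were higher, 4 were lower and 22 were not called (31.2% called). In the large subunit 9 of 49 were higher, 8 were lower and 32 were not called (34.7% called). Over all tested genes 52.9% were called. The median log2 fold change was -0.08 in the small and -0.02 in the large subunit. Counts of calls changed by more than 1.5 times when a single library was left out: 9 higher without sgPLOD2 replicate 1, 8 higher and 5 lower without sgPLOD2 replicate 2, 4 lower without sgPLOD2 replicate 3 and 6 lower without sgControl replicate 3. Over all genes these 4 fits called 44.5%, 40.4%, 43.4% and 44.2%. Called whichever of the 6 libraries was left out were 7 higher genes (RPS4X, RPL14, RPL15, RPL32, RPS6, RPSA and RPS10) and 4 lower genes (RPS21, RPL35, RPL41 and RPS4Y1), and the other 8 higher and 8 lower genes each lost the call in at least 1 of these fits.

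**Figure D2:**
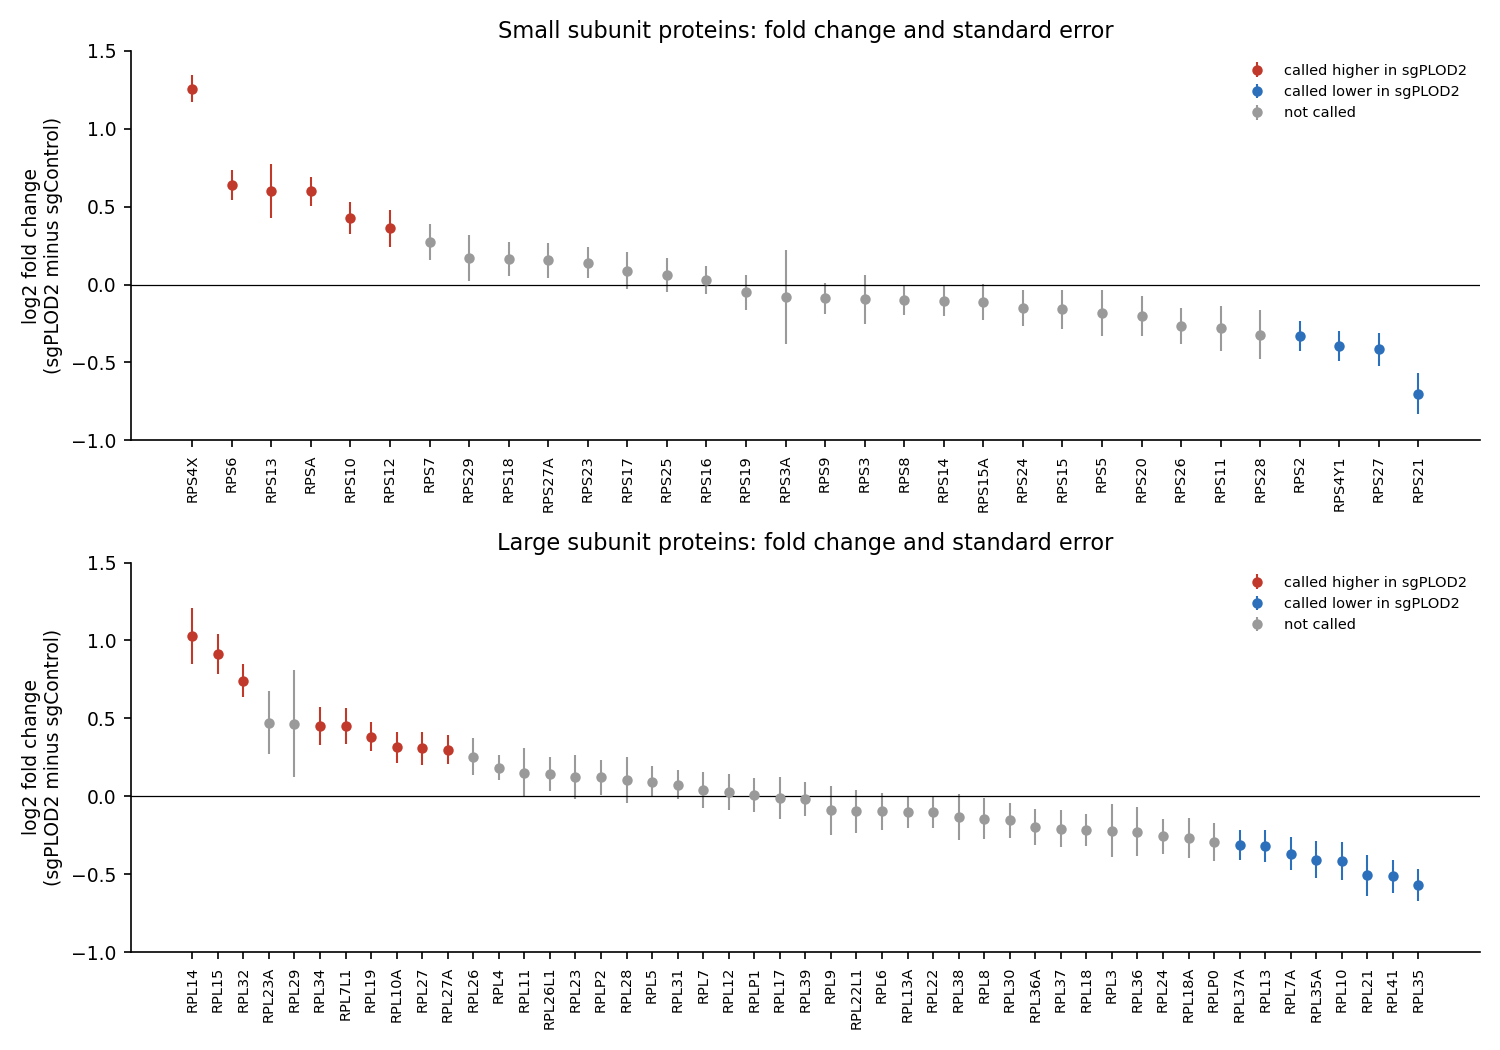
Log2 fold change of FPKM, sgPLOD2 minus sgControl (y axis), of the 81 tested ribosomal protein genes (x axis), small subunit above and large subunit below. Points are limma estimates and bars are standard errors; values run from 1.26 for RPS4X down to -0.70 for RPS21, and most genes lie near 0.

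RPS4X stood at the top of the small subunit. It encodes protein eS4 from the X chromosome (chrX:72255679-72277300, minus strand, GRCh38) and has a Y-linked copy, RPS4Y1 (chrY:2841486-2932000, plus strand), whose product takes the same place in the ribosome. RPS4X is one of the genes that escape X inactivation in humans. RPS4X had 529, 469 and 476 FPKM in sgPLOD2 libraries, against 207, 194.5 and 214 FPKM in sgControl libraries. All 3 sgPLOD2 values were more than those of every sgControl library (log2 fold change 1.26, SE 0.09, limma adjusted p = 6.207e-05). An exact 2-sided permutation test over the libraries returned p = 0.1, its minimum for 3 against 3. RPS4Y1 went the other way, with 108, 104 and 97.7 FPKM in sgPLOD2 libraries, against 123, 137 and 149.9 FPKM in sgControl libraries. Its groups did not overlap either (log2 fold change -0.39, SE 0.10, limma adjusted p = 0.01286), although the call was lost after TPM rescaling (adjusted p = 0.08091) and quantile normalization (adjusted p = 0.05131). Messages from both copies together came to 595 ± 37.1 FPKM in sgPLOD2 libraries and 342 ± 18.9 FPKM in sgControl libraries (SD, n = 3 each). RPS4X supplied 83.0%, 81.8% and 83.0% of that sum in sgPLOD2 libraries, against 62.8%, 58.7% and 58.8% in sgControl libraries. The third copy, RPS4Y2, was listed at 0 in all 6 libraries.

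How far reads can tell these copies apart depends on their sequence. Their coding sequences, 792 bases each in GENCODE 29, differ at 142 bases (82.1% identical). The longest stretch without a difference is 32 bases, and any 100 consecutive bases hold at least 11 differences. Bases 502 to 561 of the coding sequence, counted from the A of the start codon, are the 60-base window with the most differences, with the 17 differing bases in capitals.
RPS4X: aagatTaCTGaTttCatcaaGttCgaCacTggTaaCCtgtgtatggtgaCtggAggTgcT
RPS4Y1: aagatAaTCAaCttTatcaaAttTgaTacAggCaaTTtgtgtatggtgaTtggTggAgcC
The 23 pseudogenes of RPS4X in the table summed to a mean of only 0.322 FPKM in sgPLOD2 libraries and 0.195 FPKM in sgControl libraries. RPS4X overlaps PIN4 on the opposite strand, and no source used here gives the strand setting of the counting.

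The other small-subunit genes called higher were RPS6, RPS13, RPSA, RPS10 and RPS12. RPS6, the protein phosphorylated by S6 kinases below mTORC1, had 507, 447 and 425 FPKM in sgPLOD2 libraries, against 295, 281 and 307 FPKM in sgControl libraries. The groups lay well apart (log2 fold change 0.64, SE 0.095, limma adjusted p = 0.001532). RPSA, also known as the laminin receptor precursor, had 514, 456 and 491 FPKM in sgPLOD2 libraries, against 309.6, 306 and 349 FPKM in sgControl libraries. Its lowest sgPLOD2 value was above its highest sgControl value (log2 fold change 0.60, SE 0.09, limma adjusted p = 0.001812). The table also held 74 RPSA pseudogenes, which summed to a mean of 72.5 FPKM in sgPLOD2 and 54.2 FPKM in sgControl libraries. RPS13 had 132, 119 and 149 FPKM in sgPLOD2 libraries, against 105, 67.3 and 93.7 FPKM in sgControl libraries. It spread more than RPS6 (log2 fold change 0.60, SE 0.17, limma adjusted p = 0.02316), its call was lost without sgPLOD2 replicate 1 or 3, and its gene overlaps PIK3C2A on the same strand. RPS10, a gene mutated in Diamond-Blackfan anaemia, averaged 381 ± 27.6 FPKM in sgPLOD2 libraries and 284 ± 27.2 FPKM in sgControl libraries (SD, n = 3 each; log2 fold change 0.43).

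RPS21, RPS27, RPS4Y1 and RPS2 were the small-subunit genes called lower. RPS21 had 219, 178 and 176 FPKM in sgPLOD2 libraries, against 315, 269 and 349.8 FPKM in sgControl libraries. This was the most negative fold change among the 81 genes (log2 fold change -0.70, SE 0.13, limma adjusted p = 0.004121), with no overlap between groups. RPS27, a zinc finger protein of the small subunit, had 262, 239 and 214 FPKM in sgPLOD2 libraries, against 319, 292 and 342 FPKM in sgControl libraries. Each sgPLOD2 library lay below each sgControl library (log2 fold change -0.42, limma adjusted p = 0.0148). RPS2, which helps to form the channel by which messenger RNA enters, had the highest mean FPKM of all 81 genes. It had 968, 991 and 1054 FPKM in sgPLOD2 libraries, against 1318, 1151 and 1324 FPKM in sgControl libraries. The groups did not overlap (log2 fold change -0.33, limma adjusted p = 0.02318), but the call was lost without any 1 of the sgPLOD2 libraries, without sgControl replicate 3 and after TPM rescaling (adjusted p between 0.05123 and 0.0859). It was also lost after quantile normalization (adjusted p = 0.2141) and with chromosome medians removed (log2 fold change -0.08, adjusted p = 0.5237). Its 24 pseudogenes had a summed mean of 1444 FPKM in sgPLOD2 and 1756 FPKM in sgControl libraries, so reads may be split between them. Deposited FPKM divides by all annotated exons merged. Rescaled to transcript length, RPS2 itself reached 2951 FPKM in sgPLOD2 and 3714 FPKM in sgControl libraries.

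RPL14, RPL15 and RPL32 led the large subunit, and all 3 lie on the short arm of chromosome 3, as does RPSA. RPL14 (chr3:40457292-40468587, GRCh38) had 56.9, 68.3 and 65.4 FPKM in sgPLOD2 libraries, against 37.0, 22.7 and 33.7 FPKM in sgControl libraries. Every sgPLOD2 library exceeded every sgControl library (log2 fold change 1.03, SE 0.18, limma adjusted p = 0.002929). The 4 pseudogenes of RPL14 summed to a mean of 37.8 FPKM in sgPLOD2 and 20.3 FPKM in sgControl libraries. RPL15 (chr3:23916545-23924374), needed for early large-subunit assembly, had 152, 118 and 153 FPKM in sgPLOD2 libraries, against 72.1, 68.5 and 81.5 FPKM in sgControl libraries. Its groups were separated by more than their own spread (log2 fold change 0.91, SE 0.13, limma adjusted p = 0.00117). RPL15 pseudogenes summed to a mean of 138 FPKM in sgPLOD2 and 81.8 FPKM in sgControl libraries, so its reads may be split. That is about as much as the gene only in deposited FPKM, which divides by all annotated exons merged. Rescaled to transcript length, RPL15 itself reached 1240 FPKM in sgPLOD2 and 652 FPKM in sgControl libraries. RPL32 (chr3:12834485-12841588) had 148, 132 and 123 FPKM in sgPLOD2 libraries, against 83.3, 71.3 and 85.0 FPKM in sgControl libraries, again without overlap (log2 fold change 0.74, SE 0.11, limma adjusted p = 0.001353). RPL34 averaged 62.8 ± 8.70 FPKM in sgPLOD2 and 45.5 ± 3.72 FPKM in sgControl libraries (log2 fold change 0.45). RPL7L1, a paralogue of RPL7 whose yeast counterpart acts in ribosome assembly rather than in the finished ribosome, averaged 18.2 ± 1.71 FPKM in sgPLOD2 and 13.0 ± 1.52 FPKM in sgControl libraries (SD, n = 3 each; log2 fold change 0.45). The other 4 large-subunit genes called higher, RPL19, RPL10A, RPL27 and RPL27A, had log2 fold changes between 0.30 and 0.38.

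**Figure D3:**
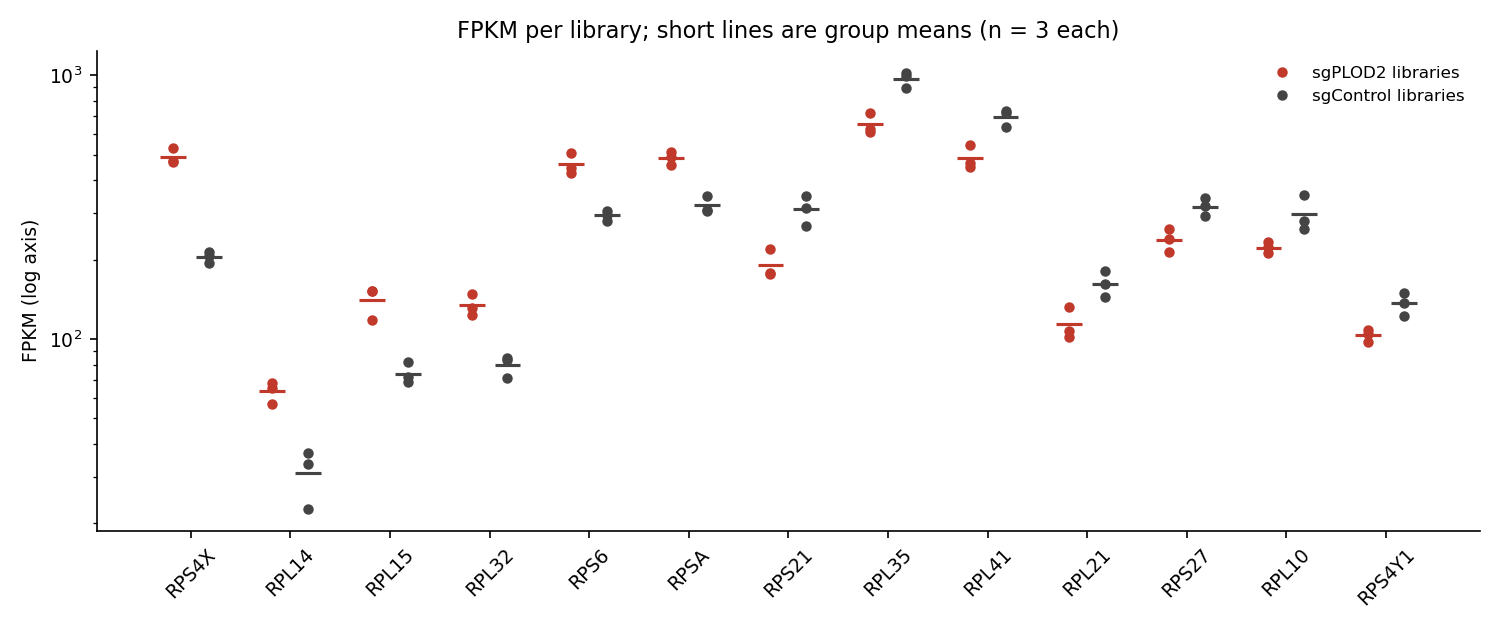
FPKM (log axis) in each library for 13 ribosomal protein genes called higher or lower (x axis), sgPLOD2 libraries left of sgControl libraries, with short lines at the group means (n = 3 each). RPS4X has 469 to 529 FPKM in sgPLOD2 and 194.5 to 214 FPKM in sgControl, and no gene shown has overlapping groups.

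Among large-subunit genes called lower, RPL35 had 719, 613 and 626 FPKM in sgPLOD2 libraries, against 991, 893 and 1025 FPKM in sgControl libraries. RPL35 sits at the exit of the tunnel for the nascent chain, and its groups did not overlap (log2 fold change -0.57, SE 0.10, limma adjusted p = 0.003316). RPL41, the smallest ribosomal protein, had 543, 467 and 451 FPKM in sgPLOD2 libraries, against 718, 636 and 729.9 FPKM in sgControl libraries. Its 3 sgPLOD2 values were below all sgControl values (log2 fold change -0.51, SE 0.11, limma adjusted p = 0.006267). RPL21 had 133, 102 and 108 FPKM in sgPLOD2 libraries, against 181, 144 and 162 FPKM in sgControl libraries, without overlap (log2 fold change -0.51, limma adjusted p = 0.0153). It stood beside 72 pseudogenes with a summed mean of 141 FPKM in sgPLOD2 and 164 FPKM in sgControl libraries, so its reads may be split. RPL10, which joins the large subunit late and completes its catalytic region, had 233, 211 and 223 FPKM in sgPLOD2 libraries, against 352, 262 and 281 FPKM in sgControl libraries. Its groups did not overlap (log2 fold change -0.41, limma adjusted p = 0.02578), but the call was lost without sgPLOD2 replicate 2 or 3 (limma adjusted p = 0.08829 and 0.07111) and after quantile normalization (adjusted p = 0.2938). RPL10 pseudogenes summed to a mean of 214 FPKM in sgPLOD2 and 300.3 FPKM in sgControl libraries, so reads may be split here too. Rescaled to transcript length, RPL10 itself reached 1504 FPKM in sgPLOD2 and 2021 FPKM in sgControl libraries. RPL35A, RPL7A, RPL13 and RPL37A were lower too, with log2 fold changes between -0.41 and -0.31.

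The stalk proteins RPLP0, RPLP1 and RPLP2, which recruit elongation factors, had log2 fold changes of -0.29, 0.01 and 0.12 and none was called. RPLP0, often used as a reference gene, had 275, 228 and 241 FPKM in sgPLOD2 libraries, against 261, 319 and 332 FPKM in sgControl libraries, and its groups overlapped (limma adjusted p = 0.08096). It was called lower in the authors' deposited table (log2 fold change -0.39, adjusted p 0.0454). RPL5 and RPL11, which with 5S ribosomal RNA can bind MDM2, had log2 fold changes of 0.09 and 0.15, and neither was called. After quantile normalization, however, RPL5 (0.29), RPL11 (0.42), RPLP1 (0.24) and RPLP2 (0.36) were called higher, and RPLP2 was also called after TPM rescaling (0.25, limma adjusted p = 0.04179). On the X chromosome, RPL39 and RPL36A had log2 fold changes of -0.02 and -0.20 and were not called. The paralogues RPL22L1 and RPL26L1 had log2 fold changes of -0.095 and 0.14 and were not called. RPL10L, used in the testis, and RPL39L were listed at 0 in all 6 libraries. RPL3L, a form made in striated muscle, was at most 0.0419 FPKM in any library, so these genes and RPS4Y2 could not be tested.

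Expression levels covered a wide range. The mean FPKM over the 6 libraries ran from 5.22 for RPL22L1 to 1135 for RPS2, with a median of 171, against a median of 5.79 for all tested genes. After RPS2, RPL35 and RPL8 were the most abundant, and RPL8 had 826 ± 108 FPKM in sgPLOD2 and 911 ± 103 FPKM in sgControl libraries without a call. RPS29, with a mean of 8.89 ± 1.34 FPKM in sgPLOD2 and 7.81 ± 1.37 FPKM in sgControl libraries, was among the 3 lowest. Deposited FPKM is proportional to the authors' mean normalized count divided by the length of all annotated exons merged, within 0.05 on the log2 scale for 97.75% of 10465 genes and for 79 of the 81 ribosomal protein genes. For RPS29 the merged exons cover 9845 bases, whereas its median transcript is 582.5 bases long. Rescaled to transcript length, RPS29 reached 150.2 FPKM in sgPLOD2 and 132 FPKM in sgControl libraries. The merged length exceeded the transcript length 4.44-fold at the median and up to 16.9-fold. Levels set between genes depend on that choice, whereas the ratio of a gene's FPKM between groups does not. Fold changes of log2(FPKM + 1) depend on it slightly through the added 1. That of RPS29 was 0.17, and 0.19 with 0.1 added instead. RPL23A, RPL29 and RPS3A, chosen after their values were seen, spread most, with a coefficient of variation above 30% in a group. RPL29 had 308, 247 and 453 FPKM in sgPLOD2 libraries, against 392.5, 175 and 189.7 FPKM in sgControl libraries, and these overlapped widely.

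The messages were also compared at their annotated starts. RefSeq start regions on GRCh38.p14 were found for 68 of the 85 genes. A run of at least 6 consecutive C or T letters, on the sense strand and touching the 10 bases either side of the start, was found in 59 of these 68 genes (86.8%), against 35.8% of all 27305 genes in the table. Among genes with 1 annotated start, 8 of 11 higher genes, 9 of 9 lower genes and 33 of 35 genes not called held one. The start windows below, of 10 bases before and 20 bases from the start, show the 5 higher genes and the 5 lower genes with the largest fold changes among those with 1 annotated start, and RPS4Y1. Capitals mark the pyrimidine run.
RPS4X (chrX:72277229-72277258, minus strand): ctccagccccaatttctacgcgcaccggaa
RPL14 (chr3:40457329-40457358, plus strand): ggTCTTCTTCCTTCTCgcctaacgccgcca
RPS6 (chr9:19380217-19380246, minus strand): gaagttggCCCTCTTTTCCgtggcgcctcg
RPS13 (chr11:17077648-17077677, minus strand): ctctcgCTCTCCTTTCgttgcctgatcgcc
RPSA (chr3:39406710-39406739, plus strand): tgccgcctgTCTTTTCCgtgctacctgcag
RPS21 (chr20:62387093-62387122, plus strand): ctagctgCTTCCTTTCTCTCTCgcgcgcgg
RPL35 (chr9:124861938-124861967, minus strand): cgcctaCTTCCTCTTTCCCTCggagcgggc
RPL41 (chr12:56116623-56116652, plus strand): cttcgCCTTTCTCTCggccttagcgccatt
RPL21 (chr13:27251548-27251577, plus strand): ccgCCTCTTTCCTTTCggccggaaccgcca
RPS27 (chr1:153990752-153990781, plus strand): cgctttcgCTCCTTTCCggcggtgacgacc
RPS4Y1 (chrY:2841592-2841621, plus strand): agaacagaTTCTCTTCCgtcgcagagtttc
Genes called higher and genes called lower both included carriers of the run, whose length went from 8 bases in RPSA to 15 bases in RPS21 and RPL35. At the RefSeq start of RPS4X no run of 6 was found in this window, which says only that these letters are not there.

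The fold changes of ribosomal protein genes followed those of the genes beside them. For each of the 81, the median log2 fold change of the other tested genes within 5 Mb was taken, over 2 to 170 neighbours, none of them a ribosomal protein gene. Over the 81 genes, fold change and neighbour median had a Pearson correlation of 0.79 and a Spearman correlation of 0.74. Both values come from the same 6 libraries, and the relation is given as a description. Without RPS4X and RPL10, the most extreme neighbour medians, Pearson's r was 0.755. Over the 70 genes with at least 20 neighbours it was 0.79. With each library left out in turn, r ran from 0.75 to 0.80. With the fold changes of the authors' deposited table it was 0.78. Among the other 10376 tested genes with neighbours, the same correlation was 0.39, and it was 0.435 among the 742 of them with a mean of at least 50 FPKM. Whether that differs from the ribosomal protein genes was not tested.

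**Figure D4:**
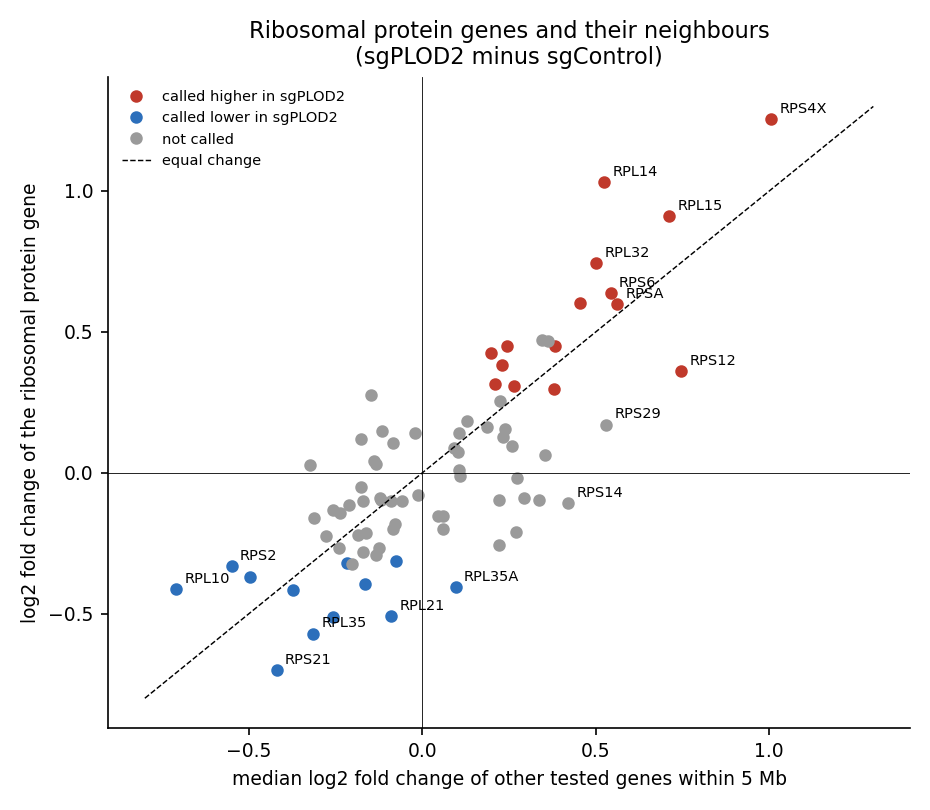
Log2 fold change of each of the 81 ribosomal protein genes, sgPLOD2 minus sgControl (y axis), against the median log2 fold change of the other tested genes within 5 Mb (x axis), with the line of equal change dashed. The points rise together (Pearson's r 0.79), from RPL10 with a neighbour median of -0.71 to RPS4X with 1.01.

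All 15 genes called higher lay where the neighbour median was above 0, between 0.20 and 1.01. Of the 12 called lower, 11 lay where it was below 0, and the exception was RPL35A (neighbour median 0.10). Among the 54 genes not called, 25 had a neighbour median above 0. RPS4X had 26 tested neighbours, of which 20 were called higher and 0 lower, with a median log2 fold change of 1.01. The 53 neighbours of RPL32 had a median of 0.50, with 38 called higher and 0 lower. RPL15 (13 neighbours) had a neighbour median of 0.71, RPSA (26) 0.56, RPS6 (14) 0.54 and RPL14 (35) 0.53. On the lower side, RPL10, on the same chromosome as RPS4X, had 59 neighbours with a median of -0.71. RPS2 had 119 neighbours with a median of -0.55, and RPL7A had 128 with a median of -0.50. RPS14 and RPS12, picked out after their values were seen, lay well below their surroundings. RPS14 had a log2 fold change of -0.11 beside a neighbour median of 0.42, and RPS12 had 0.36 beside 0.75. RPS12 (-0.386 from its neighbour median) was not among the most extreme. RPL35A (-0.503), RPL37 (-0.478), RPL24 (-0.476), RPS3 (-0.432) and RPL21 (-0.418) lay farther below theirs. RPL14 (0.506) lay farthest above.

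After the neighbour median was subtracted from each of the 10469 genes, an alternative chosen after seeing the data, 2 ribosomal protein genes were called higher (RPS7 and RPL12) and 6 lower. None of the 15 higher genes kept its call, and RPL21 and RPL35A kept theirs among the 12 lower genes. RPL24, RPL37 and RPS14 were newly called lower. RPS12, called higher before subtraction (0.36), was called lower after it (-0.39, limma adjusted p = 0.03307). Over all genes 43.3% were called in that fit. RPS4X came to 0.25 on the log2 scale (limma adjusted p = 0.05256) and RPL14 to 0.51 (adjusted p = 0.05642). RPL10 changed sign, to 0.30 (adjusted p = 0.09075). The standard deviation of the fold changes over the 81 genes was 0.23 after subtraction and 0.36 before it, and 55 of the 81 came nearer to 0. The subtracted median was treated as free of error. With a window of 10 Mb RPS4X stayed called, and with 2 Mb it did not (adjusted p = 0.05158).

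**Figure D5:**
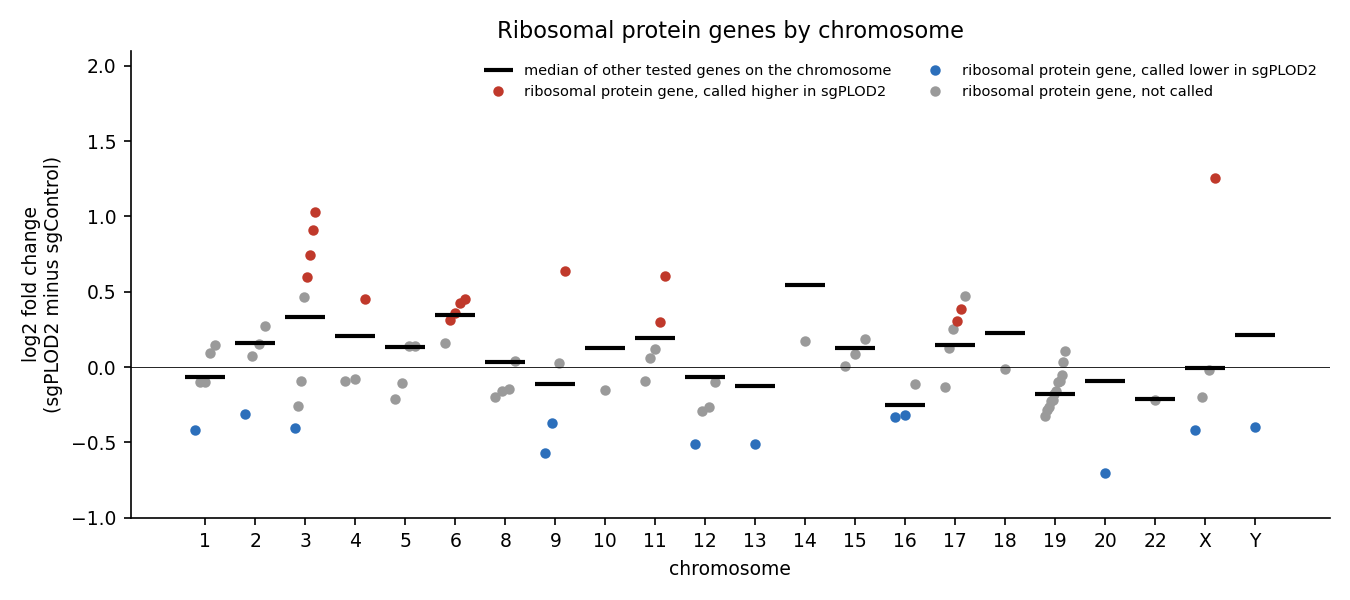
Log2 fold change, sgPLOD2 minus sgControl (y axis), of each tested ribosomal protein gene by chromosome (x axis), with a bar at the median of the other tested genes of that chromosome. On chromosome 19, 0 of 12 genes were called, against 81 higher and 222 lower among 632 other tested genes. On chromosomes 3 and 6 most calls were higher, as among the other genes there.

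Whole chromosomes showed the same pattern less closely (Pearson's r 0.50 between fold change and chromosome median, n = 81). Chromosome 3 held 8 of the 81 genes, of which 4 were higher and 1 was lower (RPL35A). Its 562 other tested genes had a median log2 fold change of 0.33, with 269 called higher and 57 lower. Chromosome 6 held 5, of which 4 were higher and 0 lower. Its 506 other genes had a median of 0.35, with 259 called higher and 43 lower. Chromosome 16 held 3, of which 2 were lower, beside a median of -0.25 for its 504 other genes, with 65 called higher and 223 lower. On chromosome 19 none of 12 was called, and their fold changes ran from -0.32 to 0.11. The 632 other genes there had a median of -0.18, with 81 called higher and 222 lower. With each chromosome's median removed, 6 of the 15 higher genes kept their call (RPS4X, RPL14, RPL15, RPL32, RPS6 and RPSA) and 9 of the 12 lower genes did. RPL7A, RPS2 and RPL13 lost theirs, and RPL24, RPL37 and RPL22L1 were newly called lower. In that fit 47.1% of all genes were called. Against features of the message the relations were weaker: Pearson's r between fold change and GC content was -0.16, and Spearman's rho was 0.14 with transcript length and -0.12 with mean FPKM, each over the 81 genes. With GC content and length adjusted for, 12 genes were called higher and 17 lower, of which 11 and 10 had been called without that step. RPS13, RPL7L1, RPL10A and RPL27 lost their higher call, and RPS2 and RPL13 their lower call. With this adjustment 50.6% of all genes were called.

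The authors' deposited table gave the same directions for the genes called in both sources. Of 82 ribosomal protein genes with an adjusted p there, 8 were called higher and 14 lower, against 35.5% of all genes called. All 8 and 12 of the 14 were called in the same direction here, and none in the opposite one. However, 7 of the 15 genes called higher here were not called there, among them RPS10 (adjusted p 0.06681 in the authors' deposited table). Both sources rest on the same libraries. In the authors' deposited table RPS4X had a log2 fold change of 1.17 (SE 0.13, adjusted p 2.77e-17) and RPS21 one of -0.80 (SE 0.17, adjusted p 1.68e-05). Its values lay below the FPKM estimates by a median of -0.095 on the log2 scale.

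Genes linked to the ribosomal proteins were taken from 7 lists named by function, and the place of each gene in its list was not checked. Neighbour medians, taken within 5 Mb as above, are given beside the fold changes of named genes, and their part in them was not tested. RPS27L, the paralogue of RPS27 that the name rule left out, had 2.96, 2.72 and 2.54 FPKM in sgPLOD2 libraries, against 7.55, 6.14 and 7.27 FPKM in sgControl libraries. RPS27L thus fell in every sgPLOD2 library below every sgControl library (log2 fold change -1.09, neighbour median 0.16, limma adjusted p = 0.0002391), beside the lower RPS27.

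Of 14 chaperones and importers of ribosomal proteins, 8 were higher and 2 lower, which is 71.43% called beside the 52.9% of all tested genes. The importin IPO7, a carrier of ribosomal proteins into the nucleus, had 24.4, 31.5 and 28.2 FPKM in sgPLOD2 libraries, against 11.5, 10.7 and 8.23 FPKM in sgControl libraries. These groups lay far apart (log2 fold change 1.38, neighbour median 0.335, limma adjusted p = 0.0003532). The importin TNPO1 (log2 fold change 1.06, neighbour median 0.018) and LTV1 (0.76, neighbour median 0.417), an assembly factor of the small subunit, were higher too. Of 30 initiation factors, 11 were higher and 2 lower (43.33% called, median log2 fold change 0.25). EIF4G2, a scaffold for initiation on selected messages, had 97.8, 112 and 94.6 FPKM in sgPLOD2 libraries, against 33.4, 40.7 and 33.5 FPKM in sgControl libraries. No library of one group came near the other (log2 fold change 1.48, neighbour median 0.346, limma adjusted p = 8.796e-05). EIF2S1, a subunit of the factor that brings the initiator tRNA, was higher (0.70), beside a neighbour median of 0.763. EIF6, which keeps free large subunits from joining, was lower (-0.61), beside a neighbour median of -0.254. Of 10 elongation and termination factors, 3 were higher and 1 lower. ETF1 and GSPT1, the termination factors, were higher (0.36 and 0.37), and the elongation factor EEF1A2 was lower (-0.49). The neighbour medians of ETF1, GSPT1 and EEF1A2 were 0.012, -0.334 and -0.469.

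Of 21 other genes whose messages carry the TOP motif, 5 were higher and 2 lower (33.33% called, against 52.9% of all tested genes). GAS5, a host of small nucleolar RNAs, was lower (-0.77), while SNHG1, another such host, and PABPC1, the poly(A)-binding protein, were higher (0.65 and 0.60). The neighbour medians of GAS5, SNHG1 and PABPC1 were -0.167, 0.027 and 0.001. Among 15 tested genes of TOP control by mTORC1 and LARP1, 5 were higher and 5 lower (66.67% called, against the same 52.9%). RHEB, the activator of mTORC1, had 37.8, 37.9 and 32.1 FPKM in sgPLOD2 libraries, against 66.0, 63.3 and 66.7 FPKM in sgControl libraries. RHEB messages were thus lower without overlap (log2 fold change -0.85, neighbour median -0.394, limma adjusted p = 0.0003854). LARP1, which binds the TOP motif, and EIF4EBP2, a translation repressor below mTORC1, were higher (0.77 and 0.76, neighbour medians 0.632 and 0.141). In the list on surveillance of unassembled ribosomal proteins, 3 of 7 genes were higher and 1 was lower (57.14% called). HUWE1, a ubiquitin ligase that marks unassembled ribosomal proteins, was higher (1.06, neighbour median -0.241). RNF168, counted in this list, was higher too (0.58, neighbour median 0.096), but no source used here gives it a role in this surveillance.

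Pseudogenes of ribosomal protein genes can share reads with them. The table held 1236 such rows, which summed to 4972, 4399 and 4411 FPKM in sgPLOD2 libraries, against 5305, 4743 and 5570 FPKM in sgControl libraries. The sums overlapped between groups. Of 82 pseudogenes that averaged 1 FPKM or more, 7 were called higher (8.54%, against 29.5% of all tested genes) and 18 lower (21.95%, against 23.5%), with a median log2 fold change of -0.15. Of the 85 genes, 42 overlapped another gene on the same strand and 62 on either strand, many of them hosts of small nucleolar RNAs, and no source used here gives the counting rule for such overlaps.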

How the data were processed

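RNA sequencing of 3 sgPLOD2 and 3 sgControl libraries of 786-O cells was analysed. Per the file headers, the authors deposited 1 FPKM value per gene and library, and their own comparison: mean normalized counts (a signal), log2 fold changes with standard errors, a test score and p-values. The submitters' processing notes name GRCh38, CASAVA, HISAT2 2.1.0 and StringTie 1.3.4 with no role. No source used here gives the counter, strand setting or annotation. Groups came from the sample titles.

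log2(FPKM + 1) was tested with limma 3.58.1 in R 4.3.3 (lmFit, eBayes with trend, 2-sided) for the 10469 genes that averaged 1 FPKM or more, with Benjamini-Hochberg adjustment over all of them at 0.05. Differences, sgPLOD2 minus sgControl, are on that scale, so those of low genes are understated. The steps were tested on simulated data. Gene positions, exon and coding sequences came from GENCODE 29 (GRCh38), start windows from RefSeq (GRCh38.p14). GC and length trends used mgcv 1.9.3.

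Genes named were RPS4X, members on X and Y, the 10 largest called changes in each direction, the 3 highest and 3 lowest levels, stalk, 5S and paralogous members, RPSA, RPS6, and the smallest adjusted p of each list; others were named after their values were seen. A gene that this rule picked is not reported here. The members and lists were chosen with earlier results of these data known. Alternatives were other pseudocounts, filters, scalings and variance models, a replicate block, each library left out, and removal of chromosome medians, of GC and length trends and, chosen after seeing the data, of neighbour medians.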

Additional observations from a re-analysis of the deposited data

How the results depend on the processing

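Without the filter on low values, 10 ribosomal protein genes were called higher and 6 lower, against 15 and 12 with it. The pathway lists had 20 genes higher and 9 lower, against 33 and 14 with the filter. Over all genes, 24.3% of 28706 were called without the filter and 52.9% with it. TPM gave 23 ribosomal protein genes higher and 7 lower and 8 list genes lower, with 53.1% of all genes called. TPM without mitochondrial and ribosomal protein genes gave 9 list genes lower, with 53.6% of all genes called. Quantile normalization gave 29 ribosomal protein genes higher and 5 lower with a median log2 fold change of 0.129, and 52.2% of all genes were called. Of all called genes, 55.7% were higher in the FPKM fit, against 67.2% after TPM and 45.2% with a minimum of 5 FPKM. Removing chromosome medians left 6 higher, and the authors' deposited table called 8 higher, with 47.1% and 35.5% of all genes called. With each library left out in turn, ribosomal protein genes called ran from 8 to 17 higher and 4 to 14 lower, and list genes from 20 to 35 higher and 6 to 14 lower. The share of all genes called in these fits ran from 40.4% to 55.4%.

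With neighbour medians removed (chosen after seeing the data), 2, 5 and 3 ribosomal protein genes were called higher for windows of 5, 2 and 10 Mb, and 6 lower for 5 Mb. Over all genes, 43.3%, 44.2% and 43.8% were called for 5, 2 and 10 Mb. List genes called lower were 9 for 2 Mb and 9 for 10 Mb. RPS4X was 0.249 and not called for 5 Mb or 2 Mb. PLOD2 was -0.158 for 2 Mb (adjusted p = 0.5094), where it has 1 tested neighbour. Signs reversed for RPL10 (0.296, 0.382 and 0.265 for 5, 2 and 10 Mb), RPS2 (0.22, 0.231 and 0.181), RPL7A (0.128 for 5 Mb and 0.136 for 10 Mb), RPS6 (-0.003 for 2 Mb), RPL34 (-0.113 for 2 Mb and -0.033 for 10 Mb), RPS12 (-0.386, -0.438 and -0.002 for 5, 2 and 10 Mb), RPL27A (-0.081 for 5 Mb), RPL10A (-0.12 for 2 Mb) and RPL13 (0.057 for 2 Mb). Of these, RPS12 for 5 and 2 Mb (limma adjusted p = 0.03307 and 0.02059) and RPL10 for 2 Mb (adjusted p = 0.04074) were called in the new direction. RPL10A also changed sign with chromosome medians removed (-0.03). The cause was not tested.

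With the replicate number as a block, 15 ribosomal protein genes were higher and 11 lower, with 50.8% of all genes called. Deviations from group means correlated at 0.014, 0.135 and -0.049 for replicates 1 to 3, and 1 of 3 control libraries correlated best with its own number. No pairing by number was seen, but 3 libraries per group are too few to tell whether there was one. Depth per library is unknown.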
